A study of Mus musculus with 5 samples.

Results

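Sox9 and 6 of its relatives, Sox4, Sox11 and Sox12 of the SoxC family, Sox5 and Sox6 of the SoxD family and Sox8 of the SoxE family, were followed in the atrioventricular canal (AVC) of mouse embryos with and without a conditional deletion of Sox9. The AVC lies between the atria and the ventricles and holds the endocardial cushions, from which the heart valves form. The genes were chosen by symbol, 7 of the 14697 transcripts in the deposited expression table, with 1 row each. RNA was sequenced at embryonic day 12.5 in the C57BL/6 strain from 2 genotypes. The Sox9 cKO embryos carried floxed Sox9 alleles (Sox9fl/fl) and 1 Tie2-Cre allele, and the embryos labelled WT carried the same floxed alleles without Cre. Tie2 drives Cre in endothelial cells, and recombination is inherited by their descendants, including the cushion mesenchyme, and by blood lineages. The myocardium of the AVC is not targeted but is part of the dissected tissue, which the labels describe as mesenchyme, endothelium and myocardium. AVCs were pooled by genotype after the extent of Sox9 deletion had been checked. The labels state 2 libraries per genotype, and the table holds 1 merged value per genotype. No spread between samples can therefore be given, no test was possible, and each difference below is a difference between 2 values. The study also mapped SOX9 binding in AVC and limb, which was not analysed here for these genes.

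SOX proteins are transcription factors that bind the minor groove of DNA through a high-mobility-group (HMG) box and bend it. Families are set by the similarity of that box. SoxE proteins (SOX8, SOX9, SOX10) activate transcription, and SOX9 is required for cartilage and for the growth and matrix of the valve cushions. SoxD proteins (SOX5, SOX6, SOX13) have no activation domain of their own. SOX5 and SOX6 dimerize through a coiled coil and in cartilage strengthen the binding of SOX9 to the enhancers of matrix genes. SoxC proteins (SOX4, SOX11, SOX12) act in progenitors of neurons, mesenchyme and heart, and mouse embryos without Sox4 or Sox11 have defects of the cardiac outflow tract, with malformed valves in the case of Sox4.

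The 7 genes covered a wide range of levels, with Sox4 the most abundant and Sox8 the least in both genotypes. Levels are the authors' normalized FPKM (nFPKM), FPKM being read fragments scaled to transcript length and to the number mapped, so that genes of different length can be compared. In cKO the order was Sox4, Sox12, Sox11, Sox9, Sox6, Sox5 and Sox8. In WT it was the same but for Sox9, which stood one place higher, above Sox11. Without replicate values it cannot be said which neighbours in these orders differ beyond their spread. In WT, Sox9 (36.7 nFPKM) and Sox11 (34.3 nFPKM) stood closest to each other. Summed over the 7 genes, the level was 194.8 nFPKM in cKO and 309.1 nFPKM in WT.

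**Figure D1:**
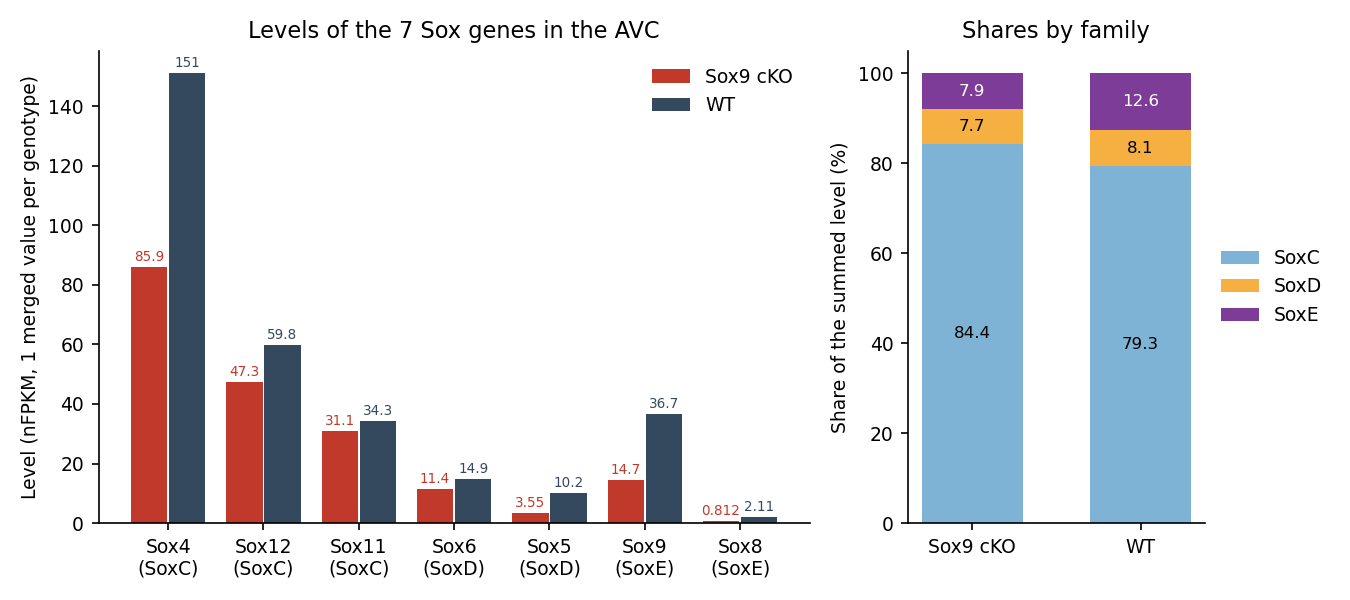
Left, level in nFPKM of each gene in Sox9 cKO (red) and WT (dark), 1 merged value per genotype and no error bars because no replicate values were used. Right, share of the summed level held by each family, with SoxE at 7.94% in cKO and 12.6% in WT.

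All 7 genes had a lower value in cKO than in WT, by amounts that ranged from slight to more than 2-fold. The comparison is given as a relative log2 ratio, the log2 ratio of cKO to WT with 1 nFPKM added to each value, minus its median over all transcripts. That median was -0.11 over the 13793 transcripts that reached 1 nFPKM in cKO, in WT or in both. All 7 genes passed this filter, Sox8 through its WT value alone, and all 7 lay below the median, as 50% of all transcripts do. Sox9 and Sox5 were at least 2-fold lower in cKO, against 0.674% of all transcripts, and none of the 7 was 2-fold higher, against 0.834%. In the authors' deposited table the same 2 genes were at least 2-fold lower, against 1.2% of all transcripts. Sox4 and Sox8 were between 1.5-fold and 2-fold lower, which made 4 genes at least 1.5-fold lower, against 2.82% of all transcripts. Sox6, Sox12 and Sox11 were within 1.5-fold. None of the 7 was 1.5-fold higher, against 3.44% of all transcripts. Their median relative log2 ratio was -0.67, beside 0 for all transcripts by construction. That median is the value of Sox8 itself, and with a pseudocount of 5 nFPKM it was -0.23. The genes were proposed as relatives of the deleted gene with results of these data known, so these counts describe the 7 genes and are no test.

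**Figure D2:**
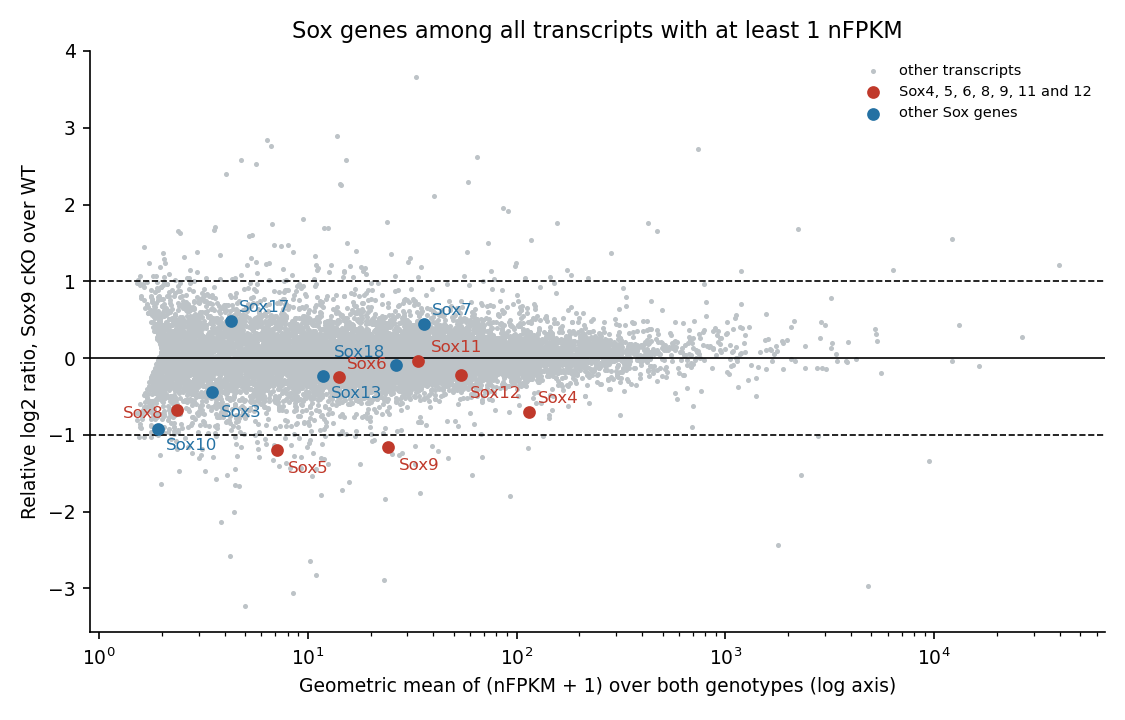
Relative log2 ratio of Sox9 cKO over WT (vertical) against the geometric mean of nFPKM + 1 over both genotypes (horizontal, log axis) for 13793 transcripts (grey), the 7 genes (red) and the other Sox genes that passed the filter (blue). Dashed lines mark a 2-fold difference. Sox5 and Sox9 lie below the lower line, Sox4 lies below nearly all transcripts of its level, and Sox7 and Sox17 lie above 0.

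Sox9, the deleted gene, was more than 2-fold lower in cKO and not absent. Its transcript (NM_011448) stood at 14.7 nFPKM in cKO and 36.7 nFPKM in WT, so the cKO value was 39.9% of the WT value. The relative log2 ratio was -1.16, and the authors' deposited table gives a log2 fold change of -1.19. Only 61 of the 13793 transcripts (0.442%) had a ratio as low. Among the 4376 transcripts whose higher value lay between 30 and 100 nFPKM, as that of Sox9 did, the middle 90% of ratios ran from -0.33 to 0.38. By level, Sox9 was above 42.3% of all transcripts in cKO and above 65.8% in WT. The value does not say which cells carry the remaining Sox9 RNA, and no source used here says which exons it counts.

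Sox8, the SoxE relative that often overlaps with Sox9 in function, was scarce in both genotypes and had nearly the same proportional difference as Sox9. Its transcript (NM_011447) stood at 0.812 nFPKM in cKO and 2.11 nFPKM in WT. The cKO value was 38.6% of the WT value, close to the 39.9% of Sox9. Sox9 was thus 18.0 times as high as Sox8 in cKO and 17.4 times as high in WT. With 1 nFPKM added to each value, the relative log2 ratio of Sox8 was -0.67, since the added amount weighs heavily at this level. Without it the ratio was -1.26. The authors' deposited table gives a log2 fold change of -0.87. Transcripts between 1 and 3 nFPKM scattered widely, with 6.40% of them at least 1.5-fold lower and 8.17% at least 1.5-fold higher. The difference in Sox8 therefore lay at the edge of the spread at its level, whose middle 90% ran from -0.66 to 0.70. Together the SoxE genes Sox8 and Sox9 summed to 15.5 nFPKM in cKO and 38.8 nFPKM in WT.

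Sox10, the remaining SoxE gene and a factor of neural crest, glia and melanocytes, was also low and lower in cKO. It stood at 0.336 nFPKM in cKO and 1.73 nFPKM in WT, so that the cKO value was 19.4% of the WT value. Like Sox8, it passed the filter through its WT value alone, and with 1 nFPKM added its relative log2 ratio was -0.93. The authors' deposited table gives -1.27 for Sox10. Of 10 listed markers of neural crest, glia and melanocytes, 6 passed the filter, and they moved in both directions around a median of -0.35. The pigment genes Dct and Pmel were at least 2-fold lower, at -2.01 and -1.27, against 0.674% of all transcripts. Dct stood at 1.12 nFPKM in cKO and 8.17 nFPKM in WT, and Pmel at 1.85 and 6.42 nFPKM in cKO and WT. Erbb3, a receptor of Schwann cell precursors, also active in cushion mesenchyme, had a ratio of -0.68, while Mlana stood at 0.97. Mlana passed the filter through its cKO value alone, at 1.86 nFPKM in cKO and 0.577 nFPKM in WT. Tyrp1 and Foxd3 had no row in the table. Mitf, a melanocyte factor that other cells of the heart also express, went the other way, at 41.7 nFPKM in cKO and 37.0 nFPKM in WT, a ratio of 0.27. The summed level of the marker list was 59.2 nFPKM in cKO and 70.8 nFPKM in WT, and without Mitf it was 17.5 nFPKM in cKO and 33.8 nFPKM in WT. Its part in the SoxE values was not tested.

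The SoxD genes differed from each other. Sox5 was more than 2-fold lower in cKO, whereas Sox6, with which it acts as a pair in cartilage, was close to the all-transcript median. Sox5 (NM_001113559) stood at 3.55 nFPKM in cKO and 10.2 nFPKM in WT, a relative log2 ratio of -1.20. The authors' deposited table gives -1.29. With a pseudocount of 5 nFPKM the ratio of Sox5 was -0.75, no longer 2-fold. The cKO value was 34.8% of the WT value, the lowest percentage among the 7 genes. Only 56 of the 13793 transcripts (0.406%) had a ratio as low as that of Sox5. Sox6 (NM_001025559) stood at 11.4 nFPKM in cKO and 14.9 nFPKM in WT, a relative log2 ratio of -0.25, inside the middle 90% of -0.45 to 0.45 for transcripts between 10 and 30 nFPKM. Sox6 was 3.22 times as high as Sox5 in cKO and 1.46 times as high in WT. Sox13, the SoxD gene outside the 7, stood at 9.49 nFPKM in cKO and 12.2 nFPKM in WT, with a ratio of -0.23 near that of Sox6. Each SoxD value rests on 1 transcript identifier. RefSeq lists 4 curated transcripts for Sox5 and 6 for Sox6, and no source used here says how reads of other isoforms were counted. In the GRCm38.p6 annotation, 6 non-coding genes overlap Sox5, Sox5os3 and Sox5os4 among them, and Sox6os and Gm51455 overlap Sox6. No source used here says whether counting used strand, so reads of such partners cannot be told apart from those of Sox5 and Sox6.

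The bases before the start of Sox5 and of Sox6 are shown because these partners differed in ratio and because their own promoters can be searched for the short sites that SOX proteins bind. The windows are the 250 bases before an annotated RefSeq start in GRCm38.p6, both on the minus strand, and they were searched on both strands for AACAAT and ACAAAG. Matches, including their reverse complements ATTGTT and CTTTGT, are in capitals. These motifs were not seen to overlap each other in the windows shown. The Sox5 window lies at chr6:143947107-143947356, and the Sox6 window, 1 of 6 annotated starts and the one with the most matches, at chr7:115824711-115824960.
Sox5: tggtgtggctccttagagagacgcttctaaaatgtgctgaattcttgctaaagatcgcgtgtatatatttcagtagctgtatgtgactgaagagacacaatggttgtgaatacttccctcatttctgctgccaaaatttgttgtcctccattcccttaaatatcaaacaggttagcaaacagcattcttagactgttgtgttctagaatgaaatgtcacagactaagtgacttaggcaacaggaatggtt
Sox6: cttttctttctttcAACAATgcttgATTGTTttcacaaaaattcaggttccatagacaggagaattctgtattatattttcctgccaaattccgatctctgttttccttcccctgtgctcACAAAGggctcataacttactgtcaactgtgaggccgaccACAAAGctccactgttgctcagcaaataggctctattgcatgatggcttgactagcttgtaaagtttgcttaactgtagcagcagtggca
The Sox5 window held neither motif. The Sox6 window held AACAAT 2 times and ACAAAG 2 times, beginning 236, 225, 130 and 90 bases before the start. It was chosen for having the most matches, so its contrast with the Sox5 window follows in part from that choice. Of the 6 Sox6 windows, 5 held at least 1 match, and the one furthest upstream held 1. No window was matched to the transcript identifier that was measured. Over all 32851 RefSeq windows of the same length, 9.42% held AACAAT, 16.5% held ACAAAG and 24.0% held either. A match is a string of letters and not a bound site, and these windows leave out distant enhancers.

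The SoxC genes made up most of the summed level, and Sox4 accounted for most of their difference. Sox4 (NM_009238) stood at 85.9 nFPKM in cKO and 151.0 nFPKM in WT, so the cKO value was 56.9% of the WT value. Its relative log2 ratio was -0.70, and the authors' deposited table also gives -0.70. In absolute terms the difference of -65.1 nFPKM was the largest of the 7 genes, beside -22.1 nFPKM for Sox9. Only 2.01% of all transcripts had a ratio as low. Transcripts between 100 and 300 nFPKM spread little, with a middle 90% from -0.28 to 0.46 and 1.13% of them at least 1.5-fold lower. The non-coding gene Gm46405 overlaps Sox4 in the GRCm38.p6 annotation, so the limit given for Sox5 and Sox6 holds here too. By level, Sox4 ranked 1835 of 14697 in cKO and 947 in WT.

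Sox12 and Sox11 were much closer to the median of all transcripts than Sox4 was. Sox12 (NM_011438), a weaker activator than its relatives, stood at 47.3 nFPKM in cKO and 59.8 nFPKM in WT, with a relative log2 ratio of -0.23. Sox11 (NM_009234), a strong activator, stood at 31.1 nFPKM in cKO and 34.3 nFPKM in WT, with a ratio of -0.03. The authors' deposited table gives -0.23 for Sox12 and -0.03 for Sox11. Both lay inside the middle 90% of their level. Sox4 was 2.76 times as high as Sox11 in cKO and 4.40 times as high in WT, while Sox12 was 1.52 times as high as Sox11 in cKO and 1.74 times in WT. Among the 3 SoxC genes the difference was thus uneven. The family summed to 164.4 nFPKM in cKO and 245.2 nFPKM in WT, or 84.4% and 79.3% of the 7 genes in cKO and WT. SoxC genes carried 70.7% of the whole difference in summed level, SoxE genes 20.4% and SoxD genes 8.86%. The relative log2 ratio of the family sum was -0.47 for SoxC, -0.64 for SoxD and -1.22 for SoxE.

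The window before the start of Sox4 is shown for the same reason, as the SoxC gene with the lowest ratio. It lies at chr13:28953700-28953949 in GRCm38.p6, on the minus strand, and was searched as above.
Sox4: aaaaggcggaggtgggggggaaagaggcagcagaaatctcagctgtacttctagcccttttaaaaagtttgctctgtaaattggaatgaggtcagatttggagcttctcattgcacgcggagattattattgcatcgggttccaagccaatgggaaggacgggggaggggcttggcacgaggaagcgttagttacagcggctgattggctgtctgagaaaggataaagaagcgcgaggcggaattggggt
It held neither motif, and nor did the windows of Sox11, Sox12 and Sox8, which are not shown. The windows differed in CpG dinucleotides, the sites of DNA methylation. That of Sox12 held 35, Sox8 18, Sox11 17, Sox4 11 and Sox5 3, and the median of all windows was 6. The windows of Sox6 spanned 1 to 10. No window of Sox9 was used.

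Among the other Sox genes, 2 of the 3 SoxF genes of endothelium, Sox7 and Sox17, had higher values in cKO, by less than 1.5-fold. The table held 15 Sox genes, 8 of them outside the 7, and 6 of those 8 passed the filter. SOX7, SOX17 and SOX18 act in the specification and growth of endothelium and endocardium. Sox7 stood at 39.5 nFPKM in cKO and 31.0 nFPKM in WT, a relative log2 ratio of 0.45. Sox17 stood at 3.87 nFPKM in cKO and 2.74 nFPKM in WT, a ratio of 0.49. Sox18 stood at 23.7 nFPKM in cKO and 27.4 nFPKM in WT, a ratio of -0.09. Of 10 listed endothelial markers, 9 were above the all-transcript median, with a median of 0.32, and Emcn and Plvap were highest at 0.82 and 0.70. Their summed level was 1140 nFPKM in cKO and 967.5 nFPKM in WT. Sox7 and Sox17 thus stood 0.12 and 0.16 above the endothelial median, and the difference of Sox18 from it was -0.42. Sox3, an X-linked gene of the SoxB family, stood at 1.89 nFPKM in cKO and 3.21 nFPKM in WT, a ratio of -0.44. Sox15 and Sox30 were under 1 nFPKM in both genotypes, at 0.246 and 0.165 nFPKM in cKO and at 0.685 and 0.699 nFPKM in WT. Summed, the 8 Sox genes outside the 7 stood at 79.2 nFPKM in cKO and 79.6 nFPKM in WT.

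Markers of valve mesenchyme, the tissue in which SOX9 acts, were also lower in cKO. All 10 listed markers passed the filter and stood below the all-transcript median, with a median relative log2 ratio of -0.62. Of them, 6 were at least 1.5-fold lower, against 2.82% of all transcripts. Their summed level was 2440 nFPKM in cKO and 3771 nFPKM in WT, and none was listed at 0. Lum (lumican, a matrix proteoglycan) was lowest at -1.80, followed by Twist1, a transcription factor of cushion mesenchyme, at -1.30. The markers were uneven, with Vcan at -0.03 and Col1a1 at -0.13 nearest to the all-transcript median. Beside this list, Sox5 and Sox9 stood below its median, with differences from it of -0.58 and -0.55. Sox4 and Sox8 stood near it, with differences of -0.08 and -0.05. Sox6, Sox12 and Sox11 stood 0.37, 0.39 and 0.58 above it. As many as 4 of the 10 markers had a ratio as low as Sox4 and 2 had one as low as Sox9. In a bulk sample, fewer mesenchymal cells and less RNA per cell cannot be told apart, and the part of the marker difference in the Sox values was not tested.

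Of the tissues named in the labels, mesenchyme, endothelium and myocardium all had their 10 listed markers above the filter. Markers of the remaining cell types were described in the same way. The 10 cardiomyocyte markers had a median of -0.03, with Myh6 at -0.49 and Ttn at 0.47, and summed to 33642 nFPKM in cKO and 32917 nFPKM in WT. Of the 10 epicardial markers, 8 were above the all-transcript median, with Krt19 at 1.13 and Lrrn4 at 0.90, and 2 were below it, Tcf21 at -0.40 and Tbx18 at -0.17. Their median was 0.64, and they summed to 398.4 nFPKM in cKO and 311.9 nFPKM in WT. The 8 erythroid markers that passed the filter had a median of 1.13, with Hbb-bh1 at 1.69 and Hba-x at 1.55, and summed to 82427 nFPKM in cKO and 35837 nFPKM in WT. Globin genes are so alike that a read may fit several of them, and their single values are uncertain. Globins took 9.65% of all nFPKM in cKO and 4.24% in WT. Rescaled to the total without globins and not centred, Sox9 stood at -1.19, beside -1.27 with neither rescaling nor centring.

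**Figure D3:**
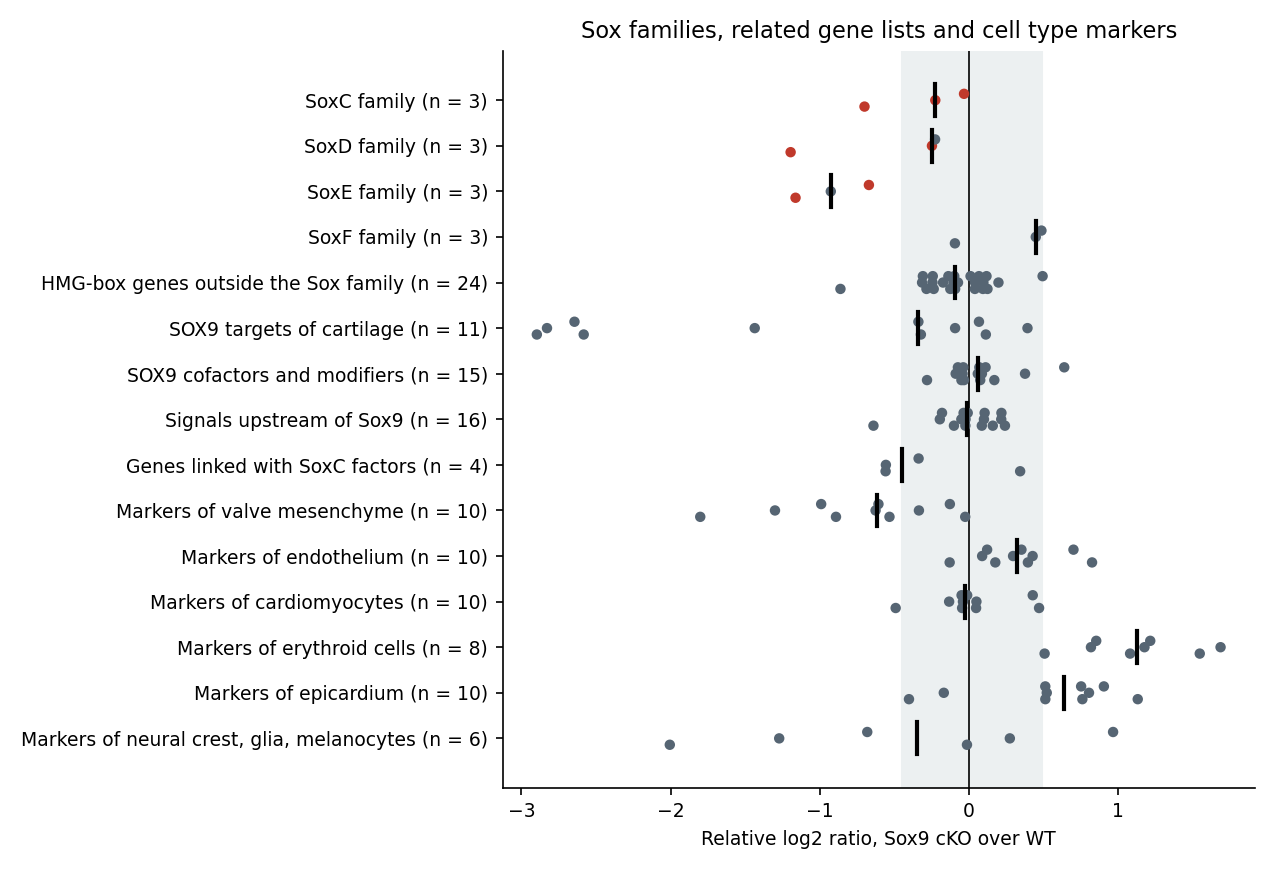
Relative log2 ratio of Sox9 cKO over WT for the Sox families, lists of related genes and cell type markers. Each point is 1 gene that passed the filter (red, the 7 genes described here), black bars are list medians and the grey band is the middle 90% of all transcripts, from -0.45 to 0.49. SoxE genes lie left of the band, and the medians of the mesenchymal and endothelial lists lie on opposite sides of 0.

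Genes that share the DNA-binding fold but not the Sox family mostly stayed near the all-transcript median. Of 24 such HMG-box genes, all passed the filter, and their median was -0.10. None was 2-fold apart, against 0.674% of all transcripts 2-fold lower and 0.834% higher. For 24 genes, finding none is close to those shares. Tox, a nuclear factor best known from T cells, was the only one 1.5-fold lower, against 2.82% of all transcripts. It stood at 5.29 nFPKM in cKO and 11.3 nFPKM in WT, a relative log2 ratio of -0.86. Tox2, at 2.09 nFPKM in cKO and 1.36 nFPKM in WT, stood highest at 0.49. Hmgb2 and Hmgb3, chromatin proteins abundant in dividing cells, both stood at -0.31. No test of the difference between the Sox and the other HMG-box genes was possible.

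Genes that SOX9 activates in cartilage divided into type IX collagen and a few others far lower in cKO, and a remainder that differed little. Of 17 listed targets, 11 passed the filter, with a median of -0.34. Of these, 5 were at least 2-fold lower, against 0.674% of all transcripts, and none was 2-fold higher, against 0.834%. Papss2, an enzyme that supplies activated sulfate for proteoglycans, stood at -2.90, Col9a1 at -2.83, Col9a3 at -2.64 and Matn4, a matrix adaptor protein, at -2.58. These 4 ratios, and that of Col9a2 at -1.44, were lower than those of Sox9 and Sox5 themselves. Matn4 passed the filter through its WT value alone, at 0.673 nFPKM in cKO and 9.78 nFPKM in WT. The remainder ran from -0.34 for Col27a1 to 0.39 for Acan, a gene near the filter, with Col2a1 at -0.09. This list was drawn up with the deletion in mind and with earlier results known, and its direction is therefore no independent evidence.

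Cofactors and signals around SOX9 were near the median. Of 15 listed cofactors and modifiers, all passed the filter, and their median was 0.06. None was 1.5-fold lower, against 2.82% of all transcripts. Ppargc1a, a coactivator of SOX9 in cartilage and of mitochondrial genes in heart, was the only one 1.5-fold higher, against 3.44% of all transcripts. It stood at 75.2 nFPKM in cKO and 51.7 nFPKM in WT, a ratio of 0.64. Arid5b, which works with SOX9 in chondrocytes, stood at 0.38, and Smad3, which joins SOX9 at its target genes, at 0.17. Of 16 signals and transducers upstream of Sox9, none was 2-fold apart, against 0.674% of all transcripts 2-fold lower and 0.834% higher. Their median was -0.02. Bmp2, the AVC ligand that induces cushion formation and Sox9, was the only one 1.5-fold lower, against 2.82% of all transcripts. It stood at 22.1 nFPKM in cKO and 37.8 nFPKM in WT, a ratio of -0.64. The receptors Bmpr1a, Bmpr2 and Notch1 stood at 0.24, 0.22 and 0.22.

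None of the genes linked with SoxC factors was 1.5-fold apart, but Tubb3 and Tbx3 came close to 1.5-fold lower. Of 5 listed, 4 passed the filter, and their median was -0.45. Tubb3, a neuronal tubulin activated by SOX4 and SOX11, stood at 12.9 nFPKM in cKO and 21.0 nFPKM in WT, a ratio of -0.56. Tbx3, a T-box factor of the AVC that acts upstream of Sox4, also stood at -0.56. Tead2, a SoxC target, stood at 139.6 nFPKM in cKO and 190.2 nFPKM in WT, a ratio of -0.34. Gja1, the gap junction gene connexin 43, stood higher in cKO at 390.3 nFPKM, against 331.0 nFPKM in WT, a ratio of 0.34.

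The transcripts whose pair of values was most like that of Sox9 included Clmp, Unc5c, Spint2 and Sln. Likeness was the distance between log2 values (nFPKM + 1) over both genotypes, which is only 2 points, among protein-coding transcripts. Clmp, a cell adhesion gene, was nearest, at 14.9 nFPKM in cKO and 39.4 nFPKM in WT, a distance of 0.10. Unc5c, a netrin receptor, lay at 0.19, Spint2, a protease inhibitor, at 0.24, and Sln, a regulator of the calcium pump in atrial muscle, at 0.31. Their relative log2 ratios ran from -1.25 for Clmp to -0.72 for Sln.

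The amounts given for Sox5, Sox8 and Sox9 depend on how low values are treated, and those of Sox4, Sox11 and Sox12 barely do. Over 8 other ways of computing the ratio, that of Sox4 ran from -0.81 to -0.70 and that of Sox11 from -0.14 to -0.03. That of Sox9 ran from -1.27 to -1.004, that of Sox5 from -1.41 to -0.75 and that of Sox8 from -1.26 to -0.21. For Sox6 it ran from -0.35 to -0.19. The lowest values of Sox4, Sox11, Sox6 and Sox9 came from leaving out the centring, which lowers all ratios by the same amount whatever their level. All 7 genes stayed below 0 in each of the 8.

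**Figure D4:**
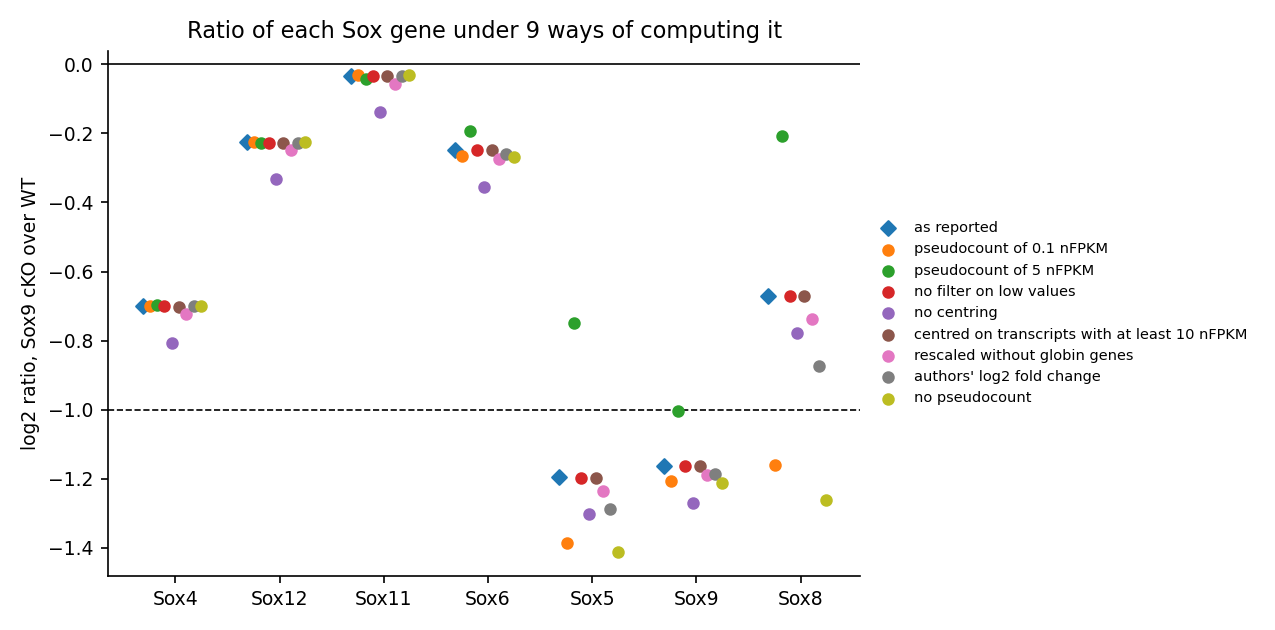
log2 ratio of Sox9 cKO over WT (vertical) of each of the 7 genes as reported (diamonds) and under 8 other ways of computing it (circles, coloured by way). The dashed line marks 2-fold lower. Points of Sox4, Sox11 and Sox12 lie close together, and those of Sox8 spread from -1.26 to -0.21.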

How the data were processed

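RNA-seq values came from AVCs at embryonic day 12.5 of Sox9 cKO and WT embryos, grouped by the genotype labels. Per the file headers, the authors deposited 1 FPKM value per transcript and genotype, normalized further by a step that no source used here describes (nFPKM) and merged over duplicate libraries, and a log2 fold change between genotypes (cKO over WT). TopHat2, Cufflinks, edgeR and the build mm9 are named, per the submitters' processing notes. Depth is unknown, since FPKM of merged libraries keep no counts. The nFPKM summed to 960481 in cKO and 961487 in WT, and none was 0.

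The log2 ratio was taken with a pseudocount of 1 nFPKM, which understates differences of low genes, for the 13793 transcripts that reached 1 nFPKM in cKO, in WT or in both (904 removed), and centred on their median. With 1 value per genotype, differences were described by size (2-fold and 1.5-fold). The 7 genes, the 10 gene lists and the 6 marker lists were chosen with earlier results of these data known. Named were all Sox genes in the table, the 5 transcripts nearest to Sox9, up to 4 genes per list with the largest absolute ratio and up to 2 per marker list. Erbb3, Mlana, Mitf, Tcf21, Tbx18, Col9a2, Col27a1, Acan, Col2a1, Vcan and Col1a1 were named after their values were seen. Some genes named by this rule do not appear in the text. Alternatives were pseudocounts of 0.1 and 5, no filter, no centring, centring on transcripts with at least 10 nFPKM, rescaling without 6 globin genes and the authors' fold change, and, added after seeing the data, no pseudocount. The ratios rescaled without globins were not centred. Symbols were matched to RefSeq GRCm38.p6, which gave promoter windows for 6 of the 7 genes. SOX9 peaks, in mm9, were not placed relative to genes, and protein sequences were not used here. Steps were tested on simulated data with Python 3.11.15, numpy 2.4.6, pandas 2.3.3 and matplotlib 3.10.9.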

Additional observations from a re-analysis of the deposited data

How the results depend on the processing

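No paired analysis was possible because the table holds 1 merged value per genotype, and for the same reason no replicate could be left out. Of the 7 genes, 2 were at least 2-fold lower in cKO (Sox5 and Sox9). With a pseudocount of 5 nFPKM it was 1, Sox9 at -1.004, and Sox5 stood at -0.75. With a pseudocount of 0.1 or with none it was 3, Sox8 included. The number at least 1.5-fold lower was 4, and 3 with a pseudocount of 5, where Sox8 stood at -0.21. No gene of the 7 was 1.5-fold higher under any of the 8 alternatives. Without centring, all ratios are lower by 0.11. The added pseudocount, and so the level of a gene, sets these differences by construction. Over all transcripts, 93 were at least 2-fold lower and 115 higher. Without centring the split was 135 lower and 82 higher, with a pseudocount of 5 it was 36 and 45 (lower and higher), with 0.1 it was 261 and 235, without a pseudocount 299 and 260, and by the authors' fold change 165 and 145. Of the listed genes around the 7, 5 were at least 2-fold lower, against 0.674% of all transcripts. It was 6 with a pseudocount of 0.1, with none, without centring, rescaled without globins and in the authors' table, Sox10 being the sixth. Pseudocount of 5 left 4. The unknown depth and the single value per genotype limit every difference here.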
